A study of Mus musculus with 4 samples.

Results

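The semaphorins, ephrins, Slits and netrins, with their receptors, are the main families of guidance cues, and 62 of their genes were measured here in embryonic mouse hearts. They were all genes whose symbol in the platform's probe annotation belongs to the families Sema3 to Sema7, Plxn, Nrp, Efn, Eph, Slit, Robo, Ntn, Unc5 or Dcc, out of 16675 genes tested, each through its brightest probe. The hearts were whole hearts of embryos at day 9.5 of a C57bl/6 x129 hybrid strain, pooled into 4 samples, each on 1 Cy5 array. Of these, 2 pools were Salv CKO, in which Salvador (Sav1) was conditionally knocked out, a scaffold that brings the Mst and Lats kinases of the Hippo pathway together, and 2 were controls labelled wild-type. The sources used here do not name the Cre line that deletes Salvador, the cells in which it acts or the number of hearts in each pool. The study sought genes under transcriptional control of Hippo signalling in the developing heart.

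Guidance cues steer growing axons, and the same ligand and receptor pairs steer endothelial, neural crest and heart cells. Semaphorins bind plexins, and the secreted class 3 members mostly need a neuropilin as co-receptor. Ephrins stay on the cell surface: ephrin-A ligands are tethered by a lipid anchor and mainly bind EphA receptors, while ephrin-B ligands span the membrane and mainly bind EphB receptors. Slits act through Robo receptors, and netrins through Dcc and the Unc5 receptors. In mouse hearts Sema3c, Sema3d and their neuropilin and plexin receptors act in the outflow tract and the veins, ephrin-B2 and EphB4 separate arterial from venous endothelium, and Slit3 acts with Robo1 in septum and valve formation.

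In Salv CKO hearts 5 of the 62 guidance genes rose and 1 fell. The genes that rose were the ephrin-A ligands Efna5 and Efna4, the receptor Epha1, the secreted semaphorin Sema3d and the membrane semaphorin Sema5a, and the gene that fell was the ephrin-B ligand Efnb3. All differences are log2 intensity after quantile normalisation, Salv CKO minus control, with the standard error of limma and n = 2 pools per group, and a gene counts as having risen or fallen at a limma adjusted p under 0.05 over all 16675 genes. Of the guidance genes 8.06% rose and 1.61% fell, where 4.92% and 5.70% of all genes tested did. In either direction 9.68% of guidance genes passed, close to the 10.6% of all genes. The median difference was 0.05 for the guidance genes, beside -0.04 for all genes. The Salv CKO and control pools did not overlap for 37 of the 62 guidance genes, which is 59.7% beside 54.2% of all genes. Of these 23 were higher and 14 lower (Ntn4 among them, below background on all arrays), 37.1% and 22.6% of the guidance genes, where 25.2% and 29.0% of all genes were. The split of the calls depended on the scaling. When the arrays were centred on their medians, 4 guidance genes were higher and 7 lower, beside 543 and 1835 of all 16675 genes. Scaling to the 75th percentile gave 6 and 4, beside 824 and 1205 of all genes. The unscaled deposited values gave 3 and 9, beside 229 and 3101 of all genes. The calls over all genes thus shifted with the scaling too. The median difference over genes above background was -0.17, -0.03 and -0.44 in these fits, beside -0.04 after quantile normalisation.

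**Figure D1:**
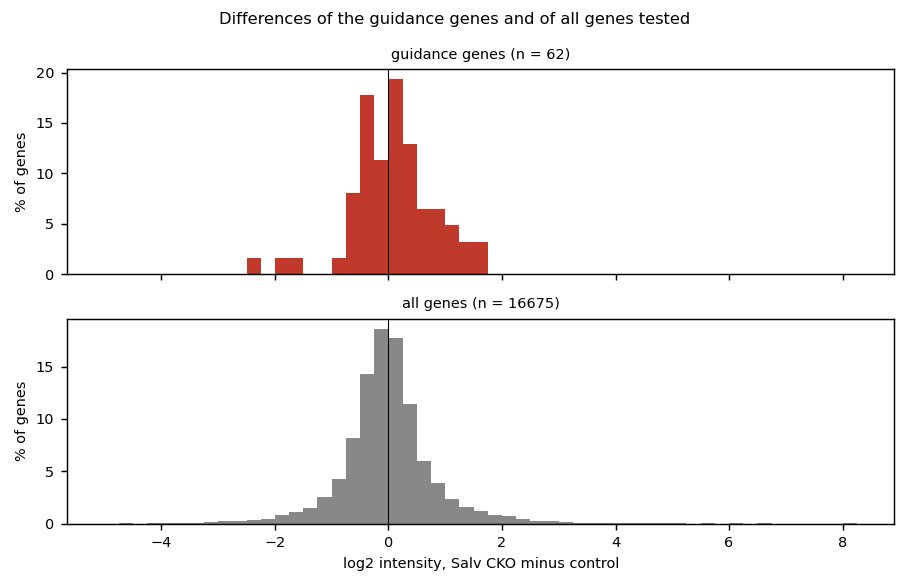
Share of genes (%, vertical axes) by difference in log2 intensity, Salv CKO minus control (horizontal axis, bins of 0.25), for the 62 guidance genes above and all 16675 genes below. Both are centred near 0, with medians of 0.05 and -0.04, and no guidance gene lies above 1.66.

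Not every member could be read. On an intensity above 16 (log2 4), taken as the limit of background, 49 of the 62 genes were above background on all 4 arrays, 9 on some and 4 on none. The 4 on none were Ephb1, Unc5d, Ntn4 and Sema4b, and no value is read from them. The 9 on some arrays were Sema3e, Sema4f, Sema6d, Plxna1, Plxna3, Efna2, Epha5, Epha6 and Robo2, none of which passed the test. No guidance gene was saturated on any array. Nrp2, Plxnd1 and Unc5c are not analysed here. Since the samples are pools of whole hearts, fewer cells of a type and less RNA per cell cannot be told apart for any of the genes below.

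**Figure D2:**
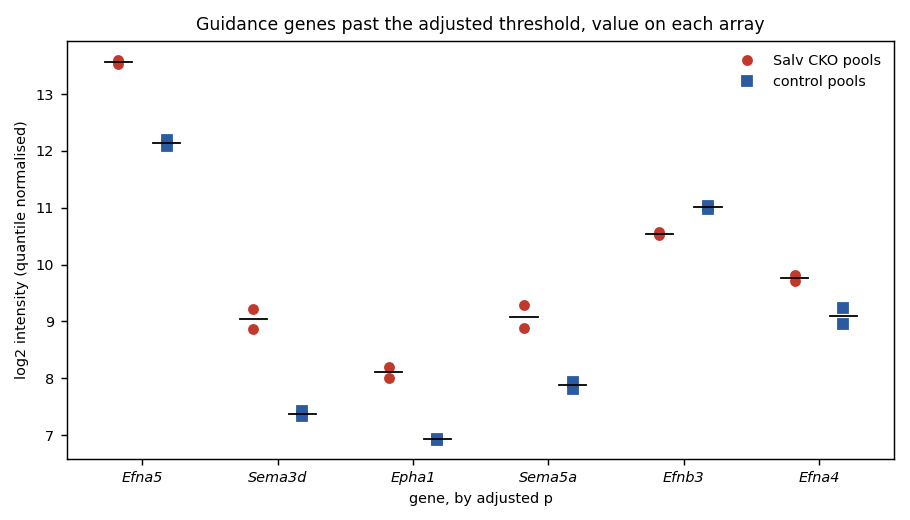
log2 intensity (quantile normalised, vertical axis) of the 6 guidance genes past the threshold on each array, with circles for the 2 Salv CKO pools, squares for the 2 control pools and lines for the group means. The groups do not overlap for any of the 6 genes, and Efnb3 alone among them is lower in Salv CKO.

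Sema3d, a secreted semaphorin that repels endothelial cells in mouse, had the largest rise of the guidance genes above background. It was at log2 9.22 and 8.87 in the Salv CKO pools, against 7.34 and 7.42 in the control pools. Both Salv CKO values lay well above both controls. The difference was 1.66 ± 0.17 (limma adjusted p = 0.0117), a 3.17-fold rise. The other Sema3d probe was above background in the Salv CKO pools only, where it was at least 3.47-fold higher, and did not pass (limma adjusted p = 0.0789 over all probes). With a floor of 16 on the intensities the limma adjusted p of Sema3d was 0.0582, and of the 6 called genes Efna5 and Efnb3 alone still passed.

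The other secreted semaphorins did not pass. Sema3c, which draws neural crest cells into the outflow tract, was at 6.89 and 6.42 in Salv CKO, against 7.17 and 7.02 in control, with no overlap and a difference of -0.44 ± 0.25 (limma adjusted p = 0.352). The 95% interval of that difference ran from -1.10 to 0.21. Sema3a and Sema3b, both repellents of axons, differed by 0.07 and -0.05, and Sema3f, a ligand of neuropilin 2, by 0.28. Sema3e, the ligand of plexin D1, was above background in both Salv CKO pools and in neither control pool, at least 1.13-fold higher in Salv CKO (limma adjusted p = 0.387).

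Among the membrane semaphorins 1 of 13 rose. Sema5a, which carries thrombospondin repeats beside its semaphorin domain, was at 9.28 and 8.88 in the Salv CKO pools, against 7.94 and 7.82 in the control pools. The groups stood apart by 1.20 ± 0.18 (limma adjusted p = 0.0221), 2.30-fold. Its other, dimmer probe gave 0.02 ± 0.48, so the rise rests on 1 probe. The near relative Sema5b was at -0.10 ± 0.16 and its groups overlapped. Of the others above background on all arrays, Sema4g had the lowest value, -0.47 ± 0.16 (limma adjusted p = 0.142), and Sema4c had the highest, 0.30 ± 0.18. Sema4a, Sema4d, Sema6a, Sema6b, Sema6c and Sema7a, the last anchored by a lipid, lay between -0.30 and 0.04, with overlapping groups for all but Sema6b.

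The receptors of the semaphorins gave no call among 8 plexins and 1 neuropilin. Plxnb3, the plexin that binds Sema5a, was at 7.95 and 8.07 in Salv CKO, against 7.48 and 7.17 in control, a difference of 0.69 ± 0.19 that did not pass (limma adjusted p = 0.0880). Plxna2 and Plxna4, partners of neuropilin for class 3 semaphorins, differed by 0.26 ± 0.16 and 0.44 ± 0.38, both with the Salv CKO pools above the controls. Plxna4 was near background, at 5.16 and 5.11 in Salv CKO and 4.82 and 4.56 in control. Plxnc1, the receptor of Sema7a, was at 7.97 and 7.75 in Salv CKO, against 8.22 and 8.21 in control (-0.36 ± 0.15, limma adjusted p = 0.228). Plxnb1, the receptor of Sema4d, and Plxnb2 were at 0.10 and -0.28.

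Nrp1, the co-receptor of Sema3a and Vegf on nerves and endothelium, was at 10.47 and 10.73 in the Salv CKO pools, against 11.29 and 10.94 in the control pools. The groups did not overlap, and the difference of -0.51 ± 0.16 did not pass on this brightest probe (limma adjusted p = 0.113). Its other probe was at 7.77 and 7.69 in Salv CKO, against 9.20 and 8.80 in control, and gave -1.27 ± 0.18 (limma adjusted p = 0.0205 over all probes). Both Nrp1 probes were thus lower in Salv CKO, in the same pools in which Sema3d was higher.

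The Eph and ephrin genes, 22 in number, held 4 of the 6 calls. As a share 18.2% of them passed, beside 10.6% of all genes and 14.0% of all genes above background on all arrays. Whether calls gathered in this system was not tested. Efna5, a ligand of EphA receptors that repels axons, had the lowest adjusted p of all guidance genes. It was at 13.60 and 13.53 in the Salv CKO pools, against 12.18 and 12.09 in the control pools. The pools of each group lay close together while the groups differed by 1.43 ± 0.07 (limma adjusted p = 0.00640), 2.69-fold. The other Efna5 probe went the other way, at 6.19 and 6.38 in Salv CKO and 6.74 and 6.87 in control (-0.52 ± 0.23, limma adjusted p = 0.256 over all probes). Which transcripts each probe matches is not known here.

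Efna4, another ephrin-A ligand, was at 9.72 and 9.82 in Salv CKO, against 9.23 and 8.96 in control, a rise of 0.67 ± 0.13 (limma adjusted p = 0.0418). It was the call nearest the threshold. With arrays centred on their medians it was lost, at 0.48 (limma adjusted p = 0.0939), as it was without scaling, at 0.21 (limma adjusted p = 0.367). Scaling to the 75th percentile kept it, at 0.63 (limma adjusted p = 0.0443). Efna3 and Efna1 were at 0.10 ± 0.09 and -0.19 ± 0.12. For Efna1 the Salv CKO pools, at 9.77 and 9.88, lay just below the controls, at 9.90 and 10.12.

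Of the 9 EphA receptors, 1 rose. A positive difference was seen for 8, of which Epha5 and Epha6 were at or below background in both control pools, or for 7 with arrays centred on their median and 5 with the values as deposited. Epha1, an EphA receptor found mostly on epithelia, was at 8.20 and 8.01 in the Salv CKO pools, against 6.92 and 6.93 in the control pools. It rose by 1.18 ± 0.17 (limma adjusted p = 0.0213), 2.26-fold. The call was lost with the values as deposited (0.82, limma adjusted p = 0.0654) and with a floor of 16 (limma adjusted p = 0.0601). Its other probes gave 1.22 ± 0.31 and 0.18 ± 0.19, neither past the threshold.

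The rest of the EphA receptors did not pass. Epha3, a receptor of Efna5 that acts in the atrioventricular cushions, was at 7.67 and 6.91 in Salv CKO, against 6.49 and 5.94 in control. Its groups did not overlap, but its pools differed widely within each group (1.07 ± 0.36, limma adjusted p = 0.144). Epha8 was at 0.85 ± 0.23 (limma adjusted p = 0.0860), Epha4, which binds ephrins of both classes, at 0.34 ± 0.11, Epha7 at 0.27 ± 0.16 and Epha10 at 0.05 ± 0.17. Epha2 was the one EphA receptor with a negative difference, at 7.93 and 8.18 in Salv CKO, against 8.62 and 8.82 in control (-0.66 ± 0.16, limma adjusted p = 0.0665). Epha6, above background only in the Salv CKO pools, was at least 1.77-fold higher there (limma adjusted p = 0.245). The median difference over the 9 EphA receptors was 0.34, with Epha6 at its bound and Epha5, for which no bound above 0 can be given, at 0.

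The upstream sequences of Efna5, Epha1 and Sema3d, the called ephrin, Eph receptor and semaphorin with the largest rise of each kind, are shown so that the start of each gene can be read beside its values. They are the 250 bases before the start of transcription, 5′ to 3′ on the strand of the gene, from RefSeq on GRCm38.p6. Capitals mark a match to GGAATG, the core that Tead factors, the DNA-binding partners of Yap, recognise, or to AGATAA, a core of Gata factors, on either strand.
Efna5, chr17:62881318-62881567, minus strand: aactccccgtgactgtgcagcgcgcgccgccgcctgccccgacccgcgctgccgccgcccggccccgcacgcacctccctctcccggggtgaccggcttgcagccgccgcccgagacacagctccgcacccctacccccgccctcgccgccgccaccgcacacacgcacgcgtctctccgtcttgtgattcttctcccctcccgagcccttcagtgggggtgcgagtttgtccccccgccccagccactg
Epha1, chr6:42373269-42373518, minus strand: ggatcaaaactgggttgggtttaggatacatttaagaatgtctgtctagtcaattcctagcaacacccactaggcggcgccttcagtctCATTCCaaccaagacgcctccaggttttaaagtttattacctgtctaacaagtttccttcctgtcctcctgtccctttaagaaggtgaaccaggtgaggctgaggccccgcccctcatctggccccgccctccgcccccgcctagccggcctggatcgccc
Sema3d, chr5:12382916-12383165, plus strand: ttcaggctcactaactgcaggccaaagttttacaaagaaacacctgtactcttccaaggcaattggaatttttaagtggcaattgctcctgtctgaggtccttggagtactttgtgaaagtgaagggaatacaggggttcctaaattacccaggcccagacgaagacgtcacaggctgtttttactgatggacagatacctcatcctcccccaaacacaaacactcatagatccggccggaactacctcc
Epha1 held 1 match, the Tead core read on the opposite strand and starting 161 bases before the start, and the Efna5 and Sema3d windows held neither motif. Of the guidance genes, 52 of 62 were in the promoter table, with 68 windows. The Tead core was in 8.82% of these windows and in 12.6% of all 32851 windows of the same length, and the Gata core in 4.41% and 9.99%. Base composition differed as well, with a median GC content of 64.4% in the windows of guidance genes and 52.4% in all windows. The other guidance genes with a Tead core were Efnb2, Epha2, Epha3, Plxnb1 and Sema4a, and those with a Gata core were Efna4, Epha3 and Robo2. A match is a stretch of letters and does not show binding.

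Ephrin-B ligands did not rise. Efnb3, best known from the midline of the nervous system, was at 10.52 and 10.57 in the Salv CKO pools, against 11.03 and 10.98 in the control pools. The pools of each group lay close together, and Efnb3 fell by 0.46 on the log2 scale (SE 0.08, limma adjusted p = 0.0282), a level 1.38-fold higher in control. Efnb2, the arterial ligand, was at 9.61 and 9.99 in Salv CKO, against 10.002 and 10.17 in control (-0.28 ± 0.16, limma adjusted p = 0.336, 95% interval -0.69 to 0.12). Efnb1 had overlapping groups and a 95% interval of -0.27 to 0.26.

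EphB receptors went both ways and none of 5 passed. Ephb2, a receptor of ephrin-B ligands, was at 7.70 and 7.44 in Salv CKO, against 6.74 and 6.66 in control (0.87 ± 0.20, limma adjusted p = 0.0609), and its other probe gave 0.79 ± 0.29. Ephb3 was at 10.29 and 10.32 in Salv CKO, against 10.66 and 10.85 in control (-0.45 ± 0.10, limma adjusted p = 0.0537). Both genes had groups that did not overlap, with opposite signs. Ephb4, the venous receptor of Efnb2, was at 0.32 ± 0.16 on its brightest probe and at -0.49 ± 0.17 on the other, so it has no settled direction. Ephb6, which lacks kinase activity, was at 0.15 ± 0.16.

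**Figure D3:**
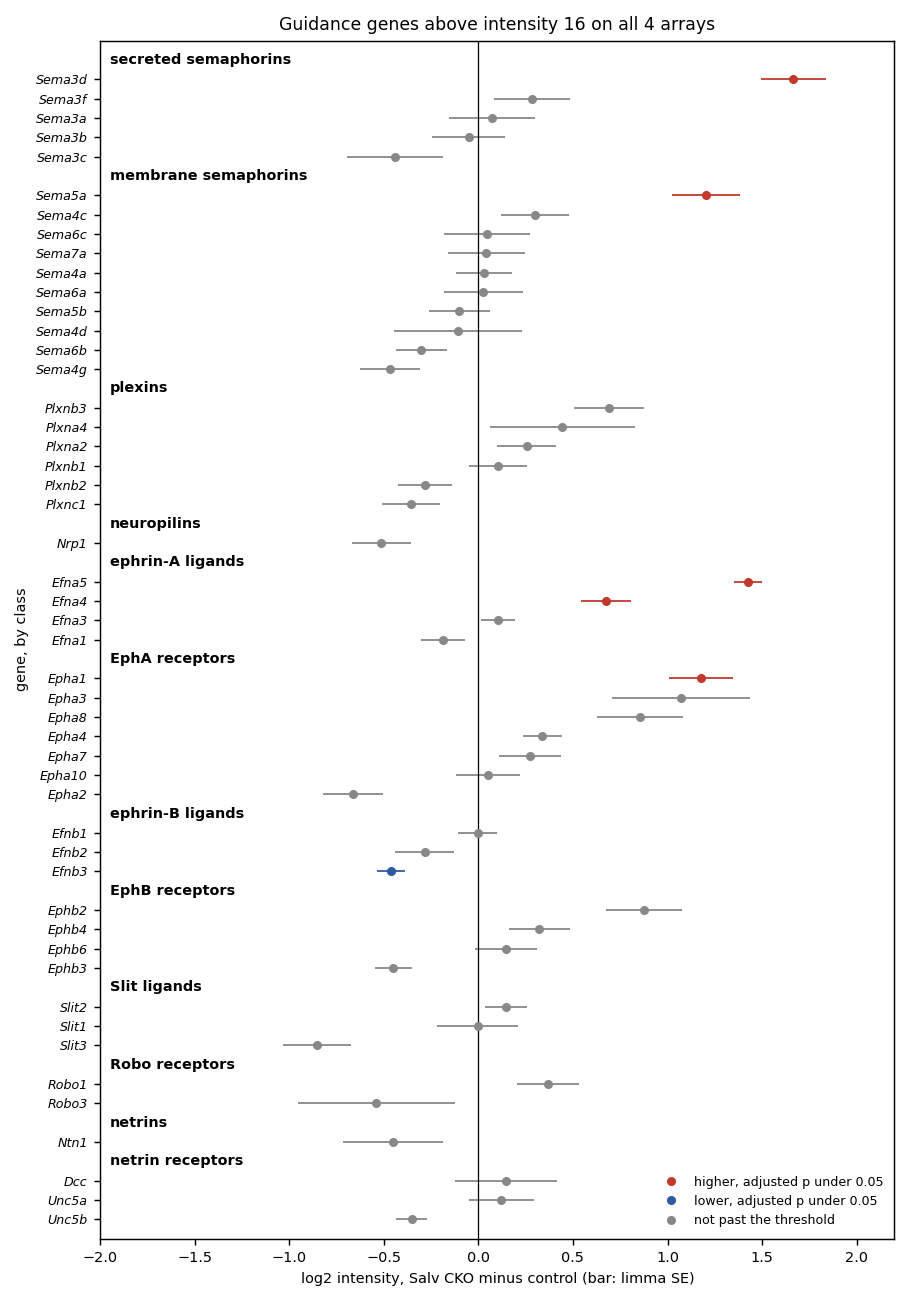
Difference in log2 intensity, Salv CKO minus control (horizontal axis), with limma standard errors as bars, of the 49 guidance genes above background on all 4 arrays, by class of ligand or receptor. The 5 red points rose and the 1 blue point fell at an adjusted p under 0.05. Grey points did not pass.

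None of 3 Slits and 3 Robo receptors passed the test. Slit3, whose loss in mice affects the diaphragm and the heart, was at 8.32 and 8.78 in the Salv CKO pools, against 9.42 and 9.38 in the control pools. Neither Salv CKO pool reached either control, and the difference of -0.85 ± 0.18 fell just short of the threshold (limma adjusted p = 0.0502). Under each of the 3 other scalings Slit3 passed as lower, as did Ephb3 and Unc5b. Slit2, which guides axons and epithelia, was at 9.20 and 9.37 in Salv CKO, against 9.12 and 9.16 in control, and its difference of 0.15 ± 0.11 had a 95% interval of -0.15 to 0.44. Slit1, mainly a neural Slit, had a 95% interval of -0.55 to 0.55. Robo1, a Slit receptor of axons and heart, was at 9.20 and 8.86 in Salv CKO, against 8.75 and 8.57 in control (0.37 ± 0.16, limma adjusted p = 0.237). Robo3, a divergent receptor of crossing axons, was at 6.19 and 5.25 in Salv CKO and at 6.42 and 6.10 in control, with overlap. Robo2 was above background in 1 Salv CKO pool.

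The netrin system gave no call either. Ntn1, the secreted netrin of the floor plate, was at 8.90 and 8.44 in Salv CKO, against 9.42 and 8.82 in control, with overlap and a difference of -0.45 ± 0.26 (limma adjusted p = 0.360). Dcc, the receptor for attraction, was at 6.63 and 6.49 in Salv CKO, against 6.20 and 6.63 in control (0.15 ± 0.27). Unc5b, the netrin receptor of endothelium, was at 11.47 and 11.33 in Salv CKO, against 11.79 and 11.72 in control. The groups did not overlap, and the difference of -0.35 ± 0.08 did not pass (limma adjusted p = 0.0641). The other Unc5b probe was at 9.19 and 9.22 in Salv CKO, against 10.28 and 10.52 in control (-1.19 ± 0.12, limma adjusted p = 0.0106 over all probes). Unc5a, a neural Unc5 receptor, was at 0.12 ± 0.17.

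Where a gene had several probes, they did not always move together. Of 13 guidance genes with several probes above background on all arrays, 3 had probes of opposite sign, namely Efna5, Ephb4 and Sema5b. For Nrp1 and Unc5b, named here for this after their values were seen, the dimmer probe passed and the brighter one did not, with the same sign on both. With the mean of all probes in place of the brightest, Efna5 was at 0.45 (limma adjusted p = 0.0494), Epha1 at 0.86 (limma adjusted p = 0.0699) and Sema5a at 0.61 (limma adjusted p = 0.290). In that fit Nrp1 and Unc5b passed as lower, at -0.89 (limma adjusted p = 0.038) and -0.77 (limma adjusted p = 0.015).

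**Figure D4:**
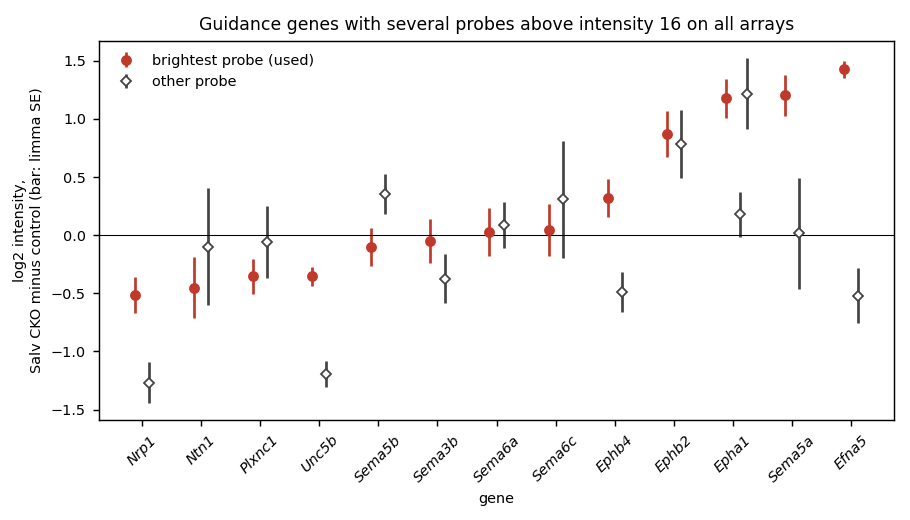
Difference in log2 intensity, Salv CKO minus control (vertical axis), with limma standard errors as bars, for the 13 guidance genes with several probes above background on all arrays. Filled circles are the brightest probe, which stands for the gene, and open diamonds the others, and Efna5, Ephb4 and Sema5b have probes on both sides of 0.

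Ligands and receptors of 1 pair can be set side by side. Sema3d was at 1.66 and its co-receptor family's measured member Nrp1 at -0.51. Sema5a and Plxnb3 were at 1.20 and 0.69. Efna5 was at 1.43, and of the EphA receptors above background on all arrays Epha3, Epha8, Epha4, Epha7 and Epha10 were at 1.07, 0.85, 0.34, 0.27 and 0.05, with Epha1 at 1.18 and Epha2 at -0.66. Efnb3 was at -0.46, and of the EphB receptors Ephb3 was at -0.45, Ephb2 at 0.87, Ephb4 at 0.32 and Ephb6 at 0.15. All are values of the brightest probe. The other probes of Efna5 and Ephb4 had the opposite sign, at -0.52 and -0.49, and the other Sema5a probe was at 0.02. Slit3 and Robo1 were at -0.85 and 0.37. Of these receptors Epha1 alone passed the test, and no difference between a ligand and its receptor was tested.

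Other genes of guidance signalling were listed from general knowledge: co-receptors, repulsive guidance molecules and adhesion partners, and the proteins that pass the signal to the cytoskeleton. Of 57 measured, 6 rose and 8 fell, 10.5% and 14.0%, beside 4.92% and 5.70% of all genes. Of the 57, 53 were above background on all arrays, and 6.45% of all such genes rose and 7.58% fell. Whether calls gathered in this list was not tested. The median difference of the 57 was -0.09. When arrays were centred on their medians 5 rose and 15 fell, beside 543 and 1835 of all 16675 genes. With the values as deposited 4 rose and 24 fell, beside 229 and 3101 of all genes. Among those that rose, Srgap3, a Rac inhibitor that binds Robo, was at 10.48 and 10.63 in Salv CKO, against 8.92 and 9.27 in control (1.46 ± 0.15, limma adjusted p = 0.0113). Nrcam, an adhesion molecule that joins neuropilins in Sema3 receptors, rose by 1.37 ± 0.14 (limma adjusted p = 0.0110). Flrt2 and Flrt3, ligands of the Unc5 receptors, rose by 1.28 ± 0.13 and 0.64 ± 0.06. Both Flrt2 probes had like values, at 1.28 and 1.30. The other Nrcam probe, near background, gave 0.41 ± 0.48 (limma adjusted p = 0.656 over all probes). The other Srgap3 and Flrt3 probes were above background on at most 2 arrays.

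Those that fell included proteins that act downstream of plexins. Mical2, a member of the family of actin-oxidising enzymes that semaphorins act through, was at 11.55 and 11.69 in Salv CKO, against 12.53 and 12.61 in control (-0.96 ± 0.08, limma adjusted p = 0.00912). The other Mical2 probe gave -0.48 ± 0.19 and did not pass (limma adjusted p = 0.215 over all probes). Mical3 fell by 1.08 on the log2 scale (SE 0.13), and Rras, a small GTPase that plexins switch off, fell by 0.57 (SE 0.08). Dpysl3, a collapsin response mediator, fell by 0.80 (SE 0.11, limma adjusted p = 0.0194). The other collapsin response mediators did not pass, with Dpysl2 at -0.20 and Crmp1, Dpysl4 and Dpysl5 at 0.38, 0.40 and 0.30. Mical1 did not pass either, at -0.15 with overlap.

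Repulsive guidance molecules and their receptor are named after their values were seen. Rgma was at 5.84 and 6.60 in Salv CKO, against 4.12 and 3.71 in control, where it was above background in 1 pool of 2 (2.31 ± 0.45, limma adjusted p = 0.0423). Rgmb, of the same family, was at 8.05 and 8.16 in Salv CKO, against 7.78 and 8.09 in control, with overlap (0.17 ± 0.17, limma adjusted p = 0.583). Neo1, the receptor shared by netrins and repulsive guidance molecules, was at 9.52 and 9.44 in Salv CKO, against 10.16 and 10.02 in control (-0.61 ± 0.10, limma adjusted p = 0.0279). Hfe2, hemojuvelin, of the same family as Rgma and found in heart and skeletal muscle, fell by 0.41 on the log2 scale (SE 0.07). Robo4, the endothelial Robo, was at -0.03 ± 0.19.

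Markers of other cell types moved between the same pools, and their part in the differences above was not tested. The summed intensity of 9 neural crest markers was 51105 and 51476 in Salv CKO, against 15022 and 14777 in control, and 5 of 9 rose. That of 14 neural markers was 17237 and 17241 in Salv CKO, against 9902 and 11414 in control, with 4 that rose and 1 that fell. For 9 somite markers it was 3724 and 3710 in Salv CKO, against 614 and 559 in control, with 3 that rose, and for 10 endoderm markers 14124 and 13675, against 8765 and 7904 in control, with 4 that rose. For 6 epicardial markers it was 2183 and 2435 in Salv CKO, against 1241 and 1196 in control, with 2 that rose. That sum comes almost wholly from Aldh1a2 and Upk3b, while Tcf21, Upk1b and the defining Wt1 were at or below background on all arrays and Tbx18 on all but 1 control array. Single genes weighed on other sums too. Crabp1, with a difference of 1.82, made up most of the neural crest sum on every array. Tcf15, with a difference of 3.08, made up most of the somite sum on every array. Most of the gain in the neural sum came from Zic1, with a difference of 8.03.

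The sums of endothelial, heart muscle and primitive red cell markers lay the other way. For 9 endothelial and endocardial markers the sum was 14653 and 14187 in Salv CKO, against 24545 and 23719 in control, with 5 that fell and 1 that rose. For 13 heart muscle markers the sum was 385794 and 396047 in Salv CKO, against 429486 and 474493 in control, with 6 that fell. All 13 were above background on every array, and 9 had negative and 4 positive differences. Of the 13 markers Actc1 and Myl4 were saturated on 4 arrays and Myh6, Myl2 and Myl3 on 2, so the sum includes saturated values. For 5 primitive red cell markers it was 106359 and 105965 in Salv CKO, against 126731 and 127204 in control, with 2 that fell, and Hba-x was saturated on 3 arrays. Foxd3 of the crest list and Myf5 of the somite list were at or below background on all arrays. Meox2 of the somite list was so on both control arrays, Myod1 of the same list and Zic1 of the neural list on 1 control array, and Tbx18 is on the somite list too.

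Sav1 itself was at 9.19 and 9.13 in Salv CKO, against 9.56 and 9.30 in control (-0.27 ± 0.13, limma adjusted p = 0.266). The place of its probe in the gene is not given, so it does not check the labels. Pearson's r over all probes was 0.947 between the Salv CKO pools, 0.946 between the control pools and 0.937 to 0.942 across groups, on log2 intensities. For 2 pools against 2 the smallest p of an exact permutation test is 0.333, so each call leans on the spread that limma shares over genes. All 6 calls were lost when any 1 pool was left out or when the spread was not modelled on intensity, settings under which no gene passed among all 16675 tested, while each difference stayed between 79.7% and 120% of its size with all pools.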

How the data were processed

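Total RNA of pooled hearts was amplified with amino-allyl nucleotides and coupled to Cy5, per the labels' protocols. The deposited values are linear probe intensities of 4 one-colour arrays, background-subtracted by the authors as far as the values show, since 3.37 to 5.99% per array lay below 0. The sources used here name no scanner, scaling or software. The 4 columns were quantile normalised, floored at an intensity of 1 and put on the log2 scale, and 21020 of 29922 probes had 1 gene symbol in the platform's annotation. Each of the 16675 genes was tested through its brightest probe with limma 3.58.1 in R 4.3.3 (lmFit, eBayes with an intensity trend), two-sided, with Benjamini-Hochberg adjustment. Probes of a gene were also fitted singly over all probes. The number of arrays limits the precision, and how the pools were made separate is not given, so p-values measure only the spread between these samples.

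Members, lists and tests were chosen with earlier results of these data known. Values are given for each guidance gene past the threshold, for the 2 of lowest p in a class without a call, and for known ligands and receptors of heart development. Of the list of pathway partners, the 8 of lowest adjusted p were to be named. Alternatives were other scalings, a floor of 16, a filter on dim genes, the mean of probes, no trend, the replicate number as a block and leaving out each pool.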

Additional observations from a re-analysis of the deposited data

How the results depend on the processing

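Counts of calls depended strongly on the processing, while the 6 called guidance genes kept their sign under every alternative run. Guidance genes called higher numbered 3 as deposited, 1 with a floor of 16, 8 with only genes above background on all arrays tested, 3 with the mean of probes and 0 with no intensity trend, against 5. Those called lower numbered 7 with arrays centred on their median, 4 with the 75th percentile, 9 as deposited, 5 with the filter on dim genes, 3 with the mean of probes and 0 with no trend, against 1. For pathway partners the calls higher were 3 (floor of 16), 2 (mean of probes) and 0 (no trend), against 6, and lower 15 (median), 24 (as deposited), 2 (floor) and 0 (no trend), against 8. Over all genes the calls higher were 543 (median), 824 (75th percentile), 229 (as deposited) and 253 (floor), against 821. They were 1239 with the filter, 558 with the mean of probes and 0 with no trend. In the same order the calls lower were 1835, 1205, 3101, 228, 1437, 666 and 0, against 951. The filter left 49 guidance genes among 12402 genes tested. With any 1 pool left out every one of these counts was 0 by limma, from 0 to 0, while 10 to 14 guidance genes had an unadjusted p under 0.05 (18 with all pools), 16.1% to 22.6% of them beside 19.0% to 20.6% of all genes. In the fit with no trend 14 guidance genes were at an unadjusted p under 0.05, 22.6% of them beside 21.5% of all genes. The cause of these shifts was not tested, except that the filter tests fewer genes and leaving out a pool uses fewer samples.

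With the replicate number as a block 5 guidance genes were called higher and 6 lower. The added ones were Epha2, Ephb3, Sema4g, Slit3 and Unc5b. Calls over all genes grew as well in that fit, to 1016 higher and 1195 lower, against 821 and 951. The samples share only a number, and deviations of same-numbered pools correlated at 0.17 over genes above background. Of differences that did not pass, these turned sign: with the values as deposited, Dcc (-0.0858), Ephb4 (-0.17), Plxna2 (-0.13), Robo1 (-0.047), Slit2 (-0.30) and Unc5a (-0.27), where the median over all genes above background was itself -0.44. Slit2 was also at -0.0292 with arrays centred on their median and Ephb4 at -0.0844 as the mean of its probes. With 1 pool left out Dcc ranged from -0.0696 (without control replicate 1) to 0.365, and Unc5a from -0.0127 (without Salv CKO replicate 2) to 0.254. Dim signal limits the 13 guidance genes at or below background on some array.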

Other observations

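Set out by role, 4 of 32 guidance ligands rose and 1 fell in Salv CKO hearts, and 1 of 30 receptors rose and 0 fell by limma, with 8 ligands and 10 receptors at an unadjusted p under 0.05. As shares, 12.5% of ligands and 3.33% of receptors rose, beside 4.92% of all genes, and 25.0% of ligands and 33.3% of receptors were at an unadjusted p under 0.05, beside 26.7% of all genes. The difference between ligands and receptors was not tested. Median differences were -0.003 for ligands and 0.20 for receptors, beside -0.04 for all genes, or 0 and 0.13 with members below background in a group at their bound.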
